A study of Homo sapiens with 4 samples.

Results

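Desmosomes are the junctions that tie the keratin filaments of neighbouring epithelial cells together. Desmogleins and desmocollins, the desmosomal cadherins, bridge the gap between the cells. Plakoglobin and the plakophilins bind their tails inside the cell, and desmoplakin links this plaque to the keratins. In stratified squamous epithelium such as the lining of the oesophagus, the cadherin and plakophilin isoforms change from the basal to the upper layers, and the junctions give the tissue its mechanical strength.

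The desmosome genes followed here are 10 of the 17185 genes that could be named on the arrays. They are a gene family picked by symbol: the desmogleins DSG1, DSG2 and DSG3, the desmocollins DSC2 and DSC3, plakoglobin (JUP), the plakophilins PKP1, PKP2 and PKP3, and desmoplakin (DSP). All 10 were represented, by 11 of the 45033 probe sets, with 3 probes in each set; JUP had 2 sets. The study asked which transcripts of a carcinoma line differ under inflammatory stimulation. The cells were KYSE410, a long-established line from a human oesophageal squamous cell carcinoma, kept in RPMI 1640 with serum and antibiotics. They were given 1 of 4 agents for 24 h: PBS (buffered saline, the control), TNFα (tumour necrosis factor, an inflammatory cytokine), IL1β (interleukin 1β, another such cytokine) or LPS (the lipopolysaccharide of Gram-negative bacterial membranes). The sources used here do not state the doses. Total RNA of each condition was measured on 1 single-colour array, 4 arrays in all.

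With 1 array per condition there was no replicate check, and no difference below has a replicate error or a p-value. Values are RMA intensities, on a linear scale unless log2 is named. Higher and lower are used as calls for a ratio of 2-fold or more between 2 arrays, provided that the brighter of them was at or above a floor. The floor was 8.02 on the log2 scale (260 on the linear scale), the median of all named genes. An intensity is called near background where it lay under 2 times the random-sequence control probes of the same array, a limit of 108 to 113. The only repeat measurement was that of genes with more than 1 probe set at the floor. For such genes, the log2 differences of the 2 brightest sets disagreed with an SD of 0.59 for TNFα against PBS (683 genes), 0.61 for IL1β (678 genes) and 0.76 for LPS (701 genes). This is the SD of the gap between 2 sets, not of 1 set. Both sets were read on the same 2 arrays, so the SD holds no variation between cultures or between arrays. It serves below as a rough scale only. In bulk RNA, fewer cells of a type and less RNA per cell cannot be told apart.

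Squamous epithelial markers were detected on every array: all 10 lay above the background limit on all 4 arrays, and KRT5, the basal keratin, lay between 48523 and 59820. CDH1, E-cadherin, was the exception in brightness, at 232 with TNFα, under the floor. By counts over all genes the array for LPS was the most distinct, with 632 named genes at least 2-fold above and 408 at least 2-fold below all 3 other arrays, against 103 to 165 and 37 to 127 for each of the others. Heart muscle markers, a list for a cell type that the line should not hold, differed between the arrays. The 12 markers summed to 40519 (PBS), 53266 (TNFα), 60900 (IL1β) and 14975 (LPS). Leukocyte markers summed to 8607, 11744, 14407 and 927 in the same order. Heart muscle and leukocyte transcripts at these levels go against the label of an epithelial carcinoma line on the PBS, TNFα and IL1β arrays, and their source was not tested. Fibroblast markers summed to between 921 and 1634 and endothelial markers to between 408 and 889.

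Across the desmosome genes the arrays differed little with the 2 cytokines, and with the brightest probe set of each gene the only call was a lower DSG2 with LPS. None of the 10 genes was higher or lower with TNFα, and 8 of them reached the floor; among all named genes at the floor 3.37% were higher and 3.40% lower, 6.76% in all. With IL1β none of the 10 was called either, again with 8 at the floor, beside 3.13% higher and 3.57% lower among all genes, 6.70% in all. At these shares a count of 0 among 8 genes does not set the desmosome genes apart. With LPS, 1 of the 8 genes at the floor was lower, DSG2, and none was higher; of all genes at the floor 7.42% were lower and 8.83% higher, 16.2% in all, so 1 in 8 is near the background. The median log2 difference over the 10 genes was 0.15 with TNFα, 0.12 with IL1β and 0.38 with LPS, beside -0.03, -0.03 and 0.02 over all named genes. Over the 8 genes at the floor the LPS median was 0.22. These counts used the brighter probe set of JUP. With the dimmer set, JUP itself was higher in all 3 comparisons, and the counts became 1, 1 and 2.

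**Figure D1:**
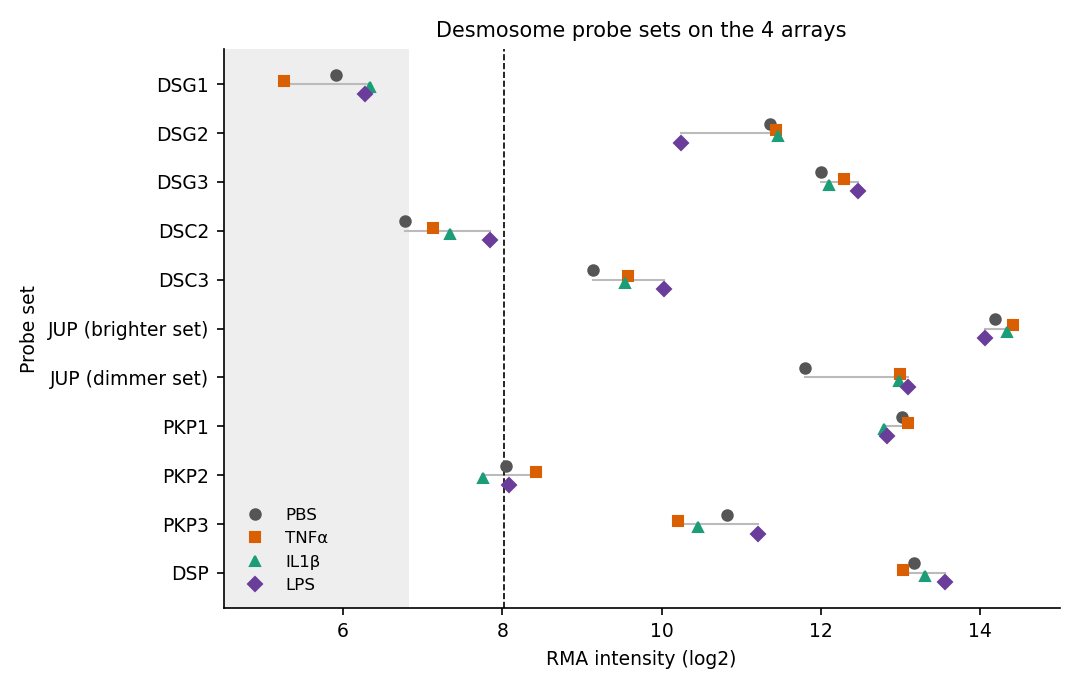
RMA intensity (log2, horizontal axis) of the 11 desmosome probe sets on the PBS, TNFα, IL1β and LPS arrays, 1 symbol per array. The dashed line is the floor of 8.02, and the shaded zone is the range near background. DSG1 lies in the shaded zone on all 4 arrays, the LPS symbol of DSG2 lies to the left of its other 3, and the PBS symbol of the dimmer JUP set lies to the left of its other 3.

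The desmogleins differed from each other in how they were detected and in how they stood with LPS. DSG2, the desmoglein of simple epithelia and heart as well as of basal squamous cells, had intensities of 2640 (PBS), 2781 (TNFα), 2811 (IL1β) and 1209 (LPS). The first 3 values were close together, and the LPS value was set apart from them. DSG2 was 2.18-fold lower with LPS than with PBS, 2.30-fold lower than with TNFα and 2.33-fold lower than with IL1β. Each comparison is a difference from a separate array, but all 3 share the LPS array. Of 10271 genes at the floor on any array, 2.82% were at least 2-fold lower on the LPS array than on each of the others. The log2 difference of DSG2 from PBS, -1.13, compares with an SD of 0.76 between probe sets of 1 gene, and DSG2 had only 1 set.

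DSG3, the desmoglein of the lower squamous layers and the main autoantigen of pemphigus vulgaris, was bright throughout, with intensities of 4113 (PBS), 5031 (TNFα), 4398 (IL1β) and 5651 (LPS). Its highest value was with LPS, 1.37-fold above PBS, so DSG3 and DSG2 had opposite signs on that array. The log2 difference of DSG3, 0.46, was smaller than the SD of 0.76 between probe sets of 1 gene. The ratio of DSG3 to DSG2 within an array was shifted on the log2 scale by 1.59 with LPS relative to PBS, against 0.22 with TNFα and 0.01 with IL1β. Such a ratio by itself shows unequal change of the 2 genes and not which of them changed. With LPS relative to PBS the same shift was 2.03 for DSC3 to DSG2 and 1.52 for DSP to DSG2, but 0.44 for DSC3 to DSG3. The larger shifts were thus in ratios that hold DSG2.

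DSG1, the desmoglein of the upper layers of stratified epithelium and the autoantigen of pemphigus foliaceus, had intensities of 60.0 (PBS), 38.2 (TNFα), 80.7 (IL1β) and 77.3 (LPS). All 4 were near background, between 0.68 and 1.44 times the random control of the same array, so no fold is given for DSG1. DSG3 in turn lay between 76.0 and 100.1 times that control.

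The start regions of the desmoglein genes are printed here because DSG1 and DSG3 share a stretch of sequence there, although 1 was near background and the other bright. Sequences are the 250 bases before the annotated start, 5′ to 3′, from RefSeq on GRCh38.p14, all on the plus strand of chromosome 18: chr18:31317910-31318159 for DSG1, chr18:31447491-31447740 for DSG3 and chr18:31497927-31498176 for DSG2. Capitals in DSG1 and DSG3 mark the longest run the pair shares, and capitals in DSG2 mark each CAGGTG, the core E-box bound by factors of the SNAI and ZEB families, or its reverse complement.
DSG1: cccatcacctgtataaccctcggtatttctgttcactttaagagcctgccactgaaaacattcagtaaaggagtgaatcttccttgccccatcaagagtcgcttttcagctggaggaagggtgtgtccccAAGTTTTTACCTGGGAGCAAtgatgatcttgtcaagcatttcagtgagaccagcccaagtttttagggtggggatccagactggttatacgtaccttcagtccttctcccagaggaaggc
DSG3: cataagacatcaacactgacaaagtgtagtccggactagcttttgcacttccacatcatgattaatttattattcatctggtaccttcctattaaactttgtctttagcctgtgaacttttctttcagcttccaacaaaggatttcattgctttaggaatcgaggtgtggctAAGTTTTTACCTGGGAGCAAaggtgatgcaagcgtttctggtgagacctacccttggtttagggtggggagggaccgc
DSG2: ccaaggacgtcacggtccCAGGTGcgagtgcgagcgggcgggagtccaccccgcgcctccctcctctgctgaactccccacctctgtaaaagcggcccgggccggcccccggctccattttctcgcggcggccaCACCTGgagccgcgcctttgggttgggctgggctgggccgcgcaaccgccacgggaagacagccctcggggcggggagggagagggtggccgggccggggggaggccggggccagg

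The shared run, AAGTTTTTACCTGGGAGCAA, is 20 bases long and lies at -120 to -101 of DSG1 and at -78 to -59 of DSG3, counted back from the base before the start. Of 35116 windows of the same length in the RefSeq promoter table, 2 held it on either strand, those of DSG1 and DSG3. No window was found for DSG4, the desmoglein gene between DSG1 and DSG3 on chromosome 18, so DSG4 was not compared. The longest run shared by any other pair of desmosomal gene windows was 11 bases. Base composition differed between the desmosomal gene windows as well. DSG1 had 48.0% G and C with 3 CpG pairs and DSG3 42.8% with 4, while DSG2 had 75.2% with 26 and DSP 78.0% with 33. The remaining windows of the 10 genes had between 59.6% and 67.6%. The median of all windows was 58.0% with 11 CpG pairs. Of all windows, 28.0% had less G and C than DSG1 and 17.8% less than DSG3. Windows were found for 8 of the 10 genes, 10 windows in all, since DSC2 and JUP had 2 each; PKP2 and PKP3 had none. CAGGTG, read on both strands, occurred in 5 of the 10, those of DSG1, DSG2 and DSP and 1 each of DSC2 and JUP, and in 17.5% of all windows. The shared run holds no CAGGTG. The AP-1 motif TGANTCA and the NF-κB motif were in 0 of the 10, and in 6.57% and 5.21% of all windows. A match describes letters only, and its absence from this window says nothing about binding elsewhere.

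The desmocollins, the partners of the desmogleins in the adhesive bond, both had their highest value with LPS and their lowest with PBS. DSC3, the desmocollin of the basal layers of stratified epithelium, had intensities of 563 (PBS), 764 (TNFα), 748 (IL1β) and 1050 (LPS). The 2 cytokine values were close together and lay between the other 2. DSC3 was thus 1.36-fold above PBS with TNFα, 1.33-fold with IL1β and 1.86-fold with LPS, all under the 2-fold threshold. The 3 comparisons share the PBS array; LPS was 1.37-fold above TNFα and 1.40-fold above IL1β.

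DSC2, the most widely expressed desmocollin and the one of heart muscle, had intensities of 110 (PBS), 140 (TNFα), 163 (IL1β) and 231 (LPS). The PBS value was just above the background limit, at 2.03 times the random control, and the LPS value was 4.09 times it. LPS was 2.11-fold above PBS, but no array reached the floor of 260, so DSC2 does not count as higher. Without the floor it does, which makes 2 genes called in that comparison.

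The 7 desmosomal cadherin genes stand side by side on chromosome 18, in the order DSC3, DSC2, DSC1, DSG1, DSG4, DSG3, DSG2 by the RefSeq table of GRCh38.p14, with no other protein-coding gene between them. Along that row the log2 differences of LPS from PBS were 0.90 for DSC3 and 1.07 for DSC2 at one end, and 0.46 for DSG3 and -1.13 for DSG2 at the other. The 3 genes in the middle, DSC1, DSG1 and DSG4, were near background on all arrays. DSG3 and DSG2, neighbours among the protein-coding genes, thus had opposite signs, but the DSG3 difference was smaller than the SD between probe sets of 1 gene.

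Plakoglobin gave different answers from its 2 probe sets. JUP encodes the armadillo protein that binds the cadherin tails in both desmosomes and adherens junctions, and its 2 sets carry accessions of 2 RefSeq transcripts of the gene. The brighter set (NM_021991) had intensities of 18664 (PBS), 21769 (TNFα), 20762 (IL1β) and 17156 (LPS). Its values stayed within 0.34 log2 units of each other, and the lowest was with LPS. The dimmer set (NM_002230) had 3579 (PBS), 8188 (TNFα), 8104 (IL1β) and 8746 (LPS). There the 3 stimulated arrays lay together and the PBS array alone was low, by 2.29-fold, 2.26-fold and 2.44-fold. Because these 3 comparisons share the single PBS array, they are not separate observations; among the stimulated arrays the dimmer set differed by 1.08-fold at most. The log2 differences of the 2 sets disagreed by 0.97 with TNFα, 1.03 with IL1β and 1.41 with LPS, each above the SD between sets of a gene given earlier. The sign with LPS was negative in the brighter set (-0.12) and positive in the dimmer one (1.29). Which set follows the JUP transcript more closely was not tested, and the sources used here do not place its probes on the transcript.

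**Figure D2:**
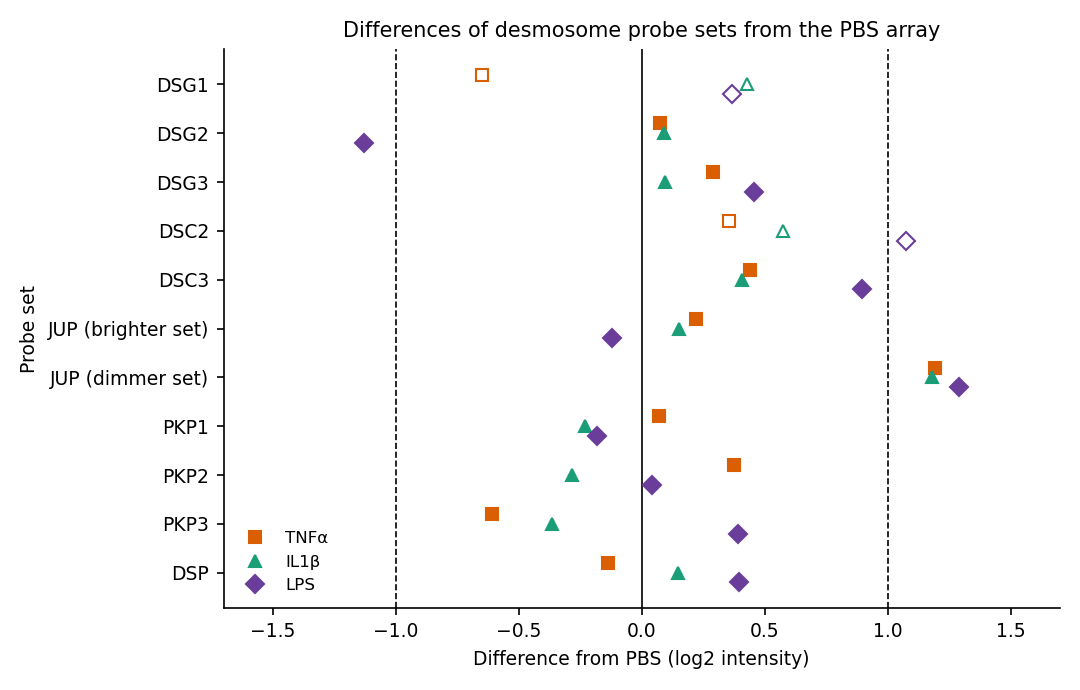
Log2 intensity of the TNFα, IL1β and LPS arrays minus the PBS array (horizontal axis) for the 11 desmosome probe sets. Dashed lines mark 2-fold, and open symbols mark comparisons in which neither array reached the floor. Filled symbols beyond the lines are DSG2 with LPS on the left and the dimmer JUP set with all 3 stimuli on the right.

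The plakophilins, which cluster the cadherins and help recruit desmoplakin, were not called in any comparison, and PKP3 varied most. PKP3, found in most desmosomes of epithelia, had intensities of 1804 (PBS), 1185 (TNFα), 1404 (IL1β) and 2367 (LPS). Both cytokine values lay below PBS and the LPS value above it. PKP3 lay 1.52-fold below PBS with TNFα, 1.29-fold below it with IL1β and 1.31-fold above it with LPS. LPS against TNFα gave a ratio of 1.998, just short of the threshold, and LPS against IL1β gave 1.69. PKP1, the plakophilin that is most abundant in the upper layers of stratified epithelium, was bright and even, with 8290 (PBS), 8714 (TNFα), 7068 (IL1β) and 7300 (LPS), a range of 0.30 log2 units. PKP2, the plakophilin of simple epithelia and heart muscle, was near the floor, with intensities of 264 (PBS), 343 (TNFα), 217 (IL1β) and 272 (LPS). Its widest difference was between the 2 cytokines, TNFα lying 1.58-fold above IL1β.

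Desmoplakin, the plakin that connects the plaque to keratin filaments, had intensities of 9191 (PBS), 8362 (TNFα), 10177 (IL1β) and 12106 (LPS). The LPS value was the highest, 1.32-fold above PBS and 1.45-fold above TNFα, and no pair of arrays differed 2-fold. The probe set carries the accession of 1 DSP transcript, so the splice forms of desmoplakin were not told apart.

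Like most named genes at the floor, the desmosome genes lay mostly in the dense band of small differences. With TNFα 7 of the 8 desmosome genes at the floor lay within 0.5 log2 units of PBS, with IL1β 8 of 8 and with LPS 6 of 8. The shares over all genes at the floor were 72.4%, 72.6% and 54.7%, and counts over 8 genes do not set the desmosome genes apart from them. Between the stimuli, no desmosome gene was called for TNFα against IL1β, where 1.87% of genes were higher and 1.74% lower, 3.60% in all. For LPS against TNFα DSG2 was lower and no desmosome gene was higher, where 7.09% of genes were lower and 9.93% higher, 17.0% in all. For LPS against IL1β it was again DSG2 alone, where 7.45% of genes were lower and 10.5% higher, 18.0% in all.

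**Figure D3:**
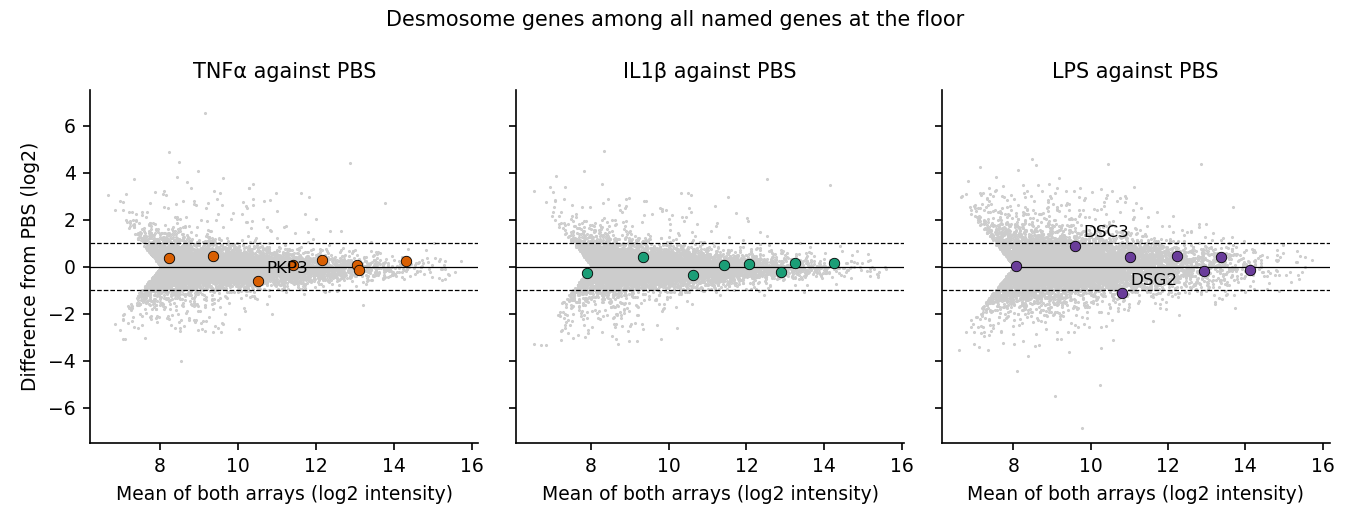
Difference from PBS (log2, vertical axis) against the mean log2 intensity of both arrays (horizontal axis) for all named genes at the floor (grey) and the 8 desmosome genes at the floor (coloured), for TNFα, IL1β and LPS. Dashed lines mark 2-fold, the narrowing at the left edge comes from the floor, and DSG2 with LPS is the coloured point below the lower line.

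Some desmosome genes are also expressed by heart muscle, namely DSG2, DSC2, PKP2, JUP and DSP, and some heart muscle markers were lower on the LPS array. MYH6, a heavy chain of heart myosin, had intensities of 9470, 14709 and 17101 with PBS, TNFα and IL1β and 81.3 with LPS, near background and at least 83.9-fold lower than with PBS. TNNT2, cardiac troponin T, had 4064, 3677, 3695 and 368 in the same order. Of the 12 heart markers 8 reached the floor for LPS against PBS, and 6 of these were lower, beside 7.42% of all genes. The other 2 were not called, ACTC1 with 17961 (PBS) and 12945 (LPS) and MYL7 with 439 and 562. MYH6, MYH7, NPPA, ACTN2 and TTN were near background with LPS, but NPPA and ACTN2 were so with PBS too. In the same comparison DSG2 was 2.18-fold lower, while PKP2 was 1.03-fold and DSP 1.32-fold above PBS, and DSC2 was 2.11-fold above it below the floor. JUP lay 1.09-fold below PBS by its brighter set and was 2.44-fold higher by its dimmer set. The part of the heart muscle transcripts in the DSG2 difference was not tested. Among leukocyte markers, 2 of 10 reached the floor for LPS against PBS, LYZ and TYROBP, and both were lower. PTPRC, the pan-leukocyte phosphatase, was near background with PBS and LPS and reached 1295 with TNFα and 1046 with IL1β.

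**Figure D4:**
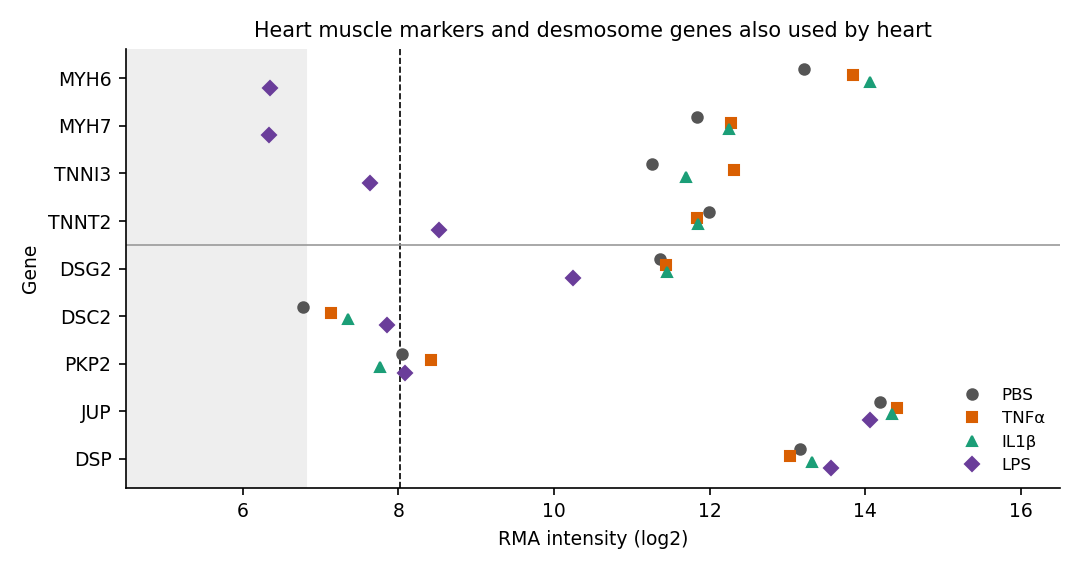
RMA intensity (log2, horizontal axis) of 4 heart muscle markers (above the grey line) and of the 5 desmosome genes also expressed in heart (below it), 1 symbol per array. The 4 markers were drawn from the 6 of 12 that were called lower with LPS. JUP is drawn by its brighter set, and its dimmer set, not shown, was 2.44-fold higher with LPS than with PBS. The LPS symbols of the 4 markers lie far left of the others, the LPS symbol of DSG2 lies to the left by a smaller distance, that of JUP lies slightly to the left, and those of DSC2, PKP2 and DSP do not. The dashed line is the floor and the shaded zone is near background.

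Other desmosome components were examined as a list of 5 further genes, of which 3 reached the floor. None was called in any of the 6 comparisons, where between 3.60% and 18.0% of all genes at the floor were called. At these shares a count of 0 among 3 genes does not set them apart. PERP, a membrane protein of desmosomes and a target of p53 and p63, had 6144 (PBS), 6386 (TNFα), 6352 (IL1β) and 5542 (LPS). CDSN, corneodesmosin of the cornified layer, lay between 334 and 406. The plakophilin-related PKP4 was highest with PBS in its brighter set, with 1241 against 768, 784 and 688, but its dimmer set had 657, 448, 603 and 681. The 2 PKP4 sets thus had opposite signs with LPS. DSC1 and DSG4, genes of the upper epidermis and of hair, were near background on all arrays.

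Of the keratins and plakins, the filaments to which desmosomes attach and their linkers, 17 were measured and all reached the floor. With LPS 4 were higher and none lower, beside 8.83% higher and 7.42% lower among all genes at the floor, with a median log2 difference of 0.40 (0.02 over all genes). They were KRT4, a keratin of the suprabasal oesophagus (3.71-fold), KRT7, a keratin of simple epithelia (2.39-fold), KRT14, the basal partner of KRT5 (2.38-fold), and KRT17, a keratin of activated epithelium (2.12-fold). With TNFα 1 of 17 was higher, KRT13 at 2.04-fold, and with IL1β none was, by the brightest set of each gene. The sets of DST, a plakin of hemidesmosomes, disagreed with IL1β: the dimmest was 2.05-fold higher than with PBS, another lay 1.75-fold below it and the brightest 1.23-fold above it. KRT14 had 8406 (PBS), 8978 (TNFα), 8297 (IL1β) and 20039 (LPS), so that 3 arrays agreed and LPS stood alone, as for DSG2 but in the other direction. PPL, periplakin, a plakin of the cornified envelope, was 1.78-fold above PBS with LPS, and 1.29-fold and 1.41-fold below it with TNFα and IL1β.

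In adherens junctions, the actin-linked junctions that form before desmosomes, all 12 genes reached the floor. With LPS 1 was higher, NECTIN4 (2.08-fold), and 2 were lower, CDH1 and CTNNB1, against the same 8.83% and 7.42%. CDH1, E-cadherin, had 1209 with PBS against 232 with TNFα, 287 with IL1β and 284 with LPS, so the PBS array alone was high. The 3 comparisons again share that array. NECTIN4 was just under 2-fold with an offset added before log2. CTNNB1, β-catenin, the closest relative of plakoglobin, had 2641 (PBS), 2862 (TNFα), 2450 (IL1β) and 803 (LPS). It was 3.29-fold lower with LPS and, like DSG2, similar on the other 3 arrays. With TNFα and with IL1β CDH1 was the only one of the 12 called.

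Hemidesmosomes anchor basal cells to the matrix, and all 7 of their genes reached the floor. ITGA6, the α6 integrin, was lower in each comparison with PBS, with 800 on the PBS array against 275 with TNFα, 177 with IL1β and 290 with LPS. No other hemidesmosome gene was called against PBS by its brightest set. A dimmer set of ITGB4, the β4 integrin, was 2.06-fold lower with LPS, while its other sets lay 1.55-fold and 1.03-fold below PBS.

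Genes that act on desmosomes included the largest differences among the junction lists. Of 17 listed 16 were measured, of which 11 reached the floor with TNFα and with IL1β and 12 with LPS; ADAM9 was not analysed here. ADAM17, a sheddase that can cut DSG2, had 1082 (PBS), 3117 (TNFα), 2209 (IL1β) and 4359 (LPS), which was 2.88-fold, 2.04-fold and 4.03-fold higher. ADAM15, a related metalloprotease, had 1059 with PBS against 9375, 8230 and 5983, between 5.65-fold and 8.86-fold higher. ADAM10, another sheddase of cadherins, was 2.09-fold lower with LPS, a call that was lost with an offset added before log2 and with a further quantile normalization. With that offset ADAM17 with IL1β was just under 2-fold. For ADAM15 the PBS array was set apart from the other 3, and the differences are not separate observations.

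With LPS, 3 of the 12 genes at the floor were higher and 4 lower, beside 8.83% and 7.42% of all genes. Besides the ADAM genes they were SPINK5, the inhibitor of the kallikreins that degrade desmosomes in the cornified layer (3.64-fold higher), and, all lower, the kallikrein KLK6 (3.81-fold), the kinase SRC (2.78-fold) and PRKCA, a protein kinase C that loosens desmosomes (2.24-fold). The dimmer KLK6 set was lower with all 3 stimuli, by 2.13-fold with TNFα, 2.12-fold with IL1β and 6.69-fold with LPS, while the brighter set was called with LPS alone. PRKCA was also lower with TNFα, at least 3.25-fold, and with IL1β, 2.09-fold, but it was dim, and neither the IL1β nor the LPS call held with an offset added before log2. With the floor at the 75th percentile PRKCA, SPINK5, ADAM10 and the brighter KLK6 set had no calls. The 4 probe sets of EGFR, whose signalling promotes uptake of DSG2 from the surface, all lay below PBS with LPS, by 1.25-fold to 1.98-fold. None passed the threshold against PBS. By its brightest set EGFR was lower with LPS (4568) than with TNFα (10850) and with IL1β (10762).

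**Figure D5:**
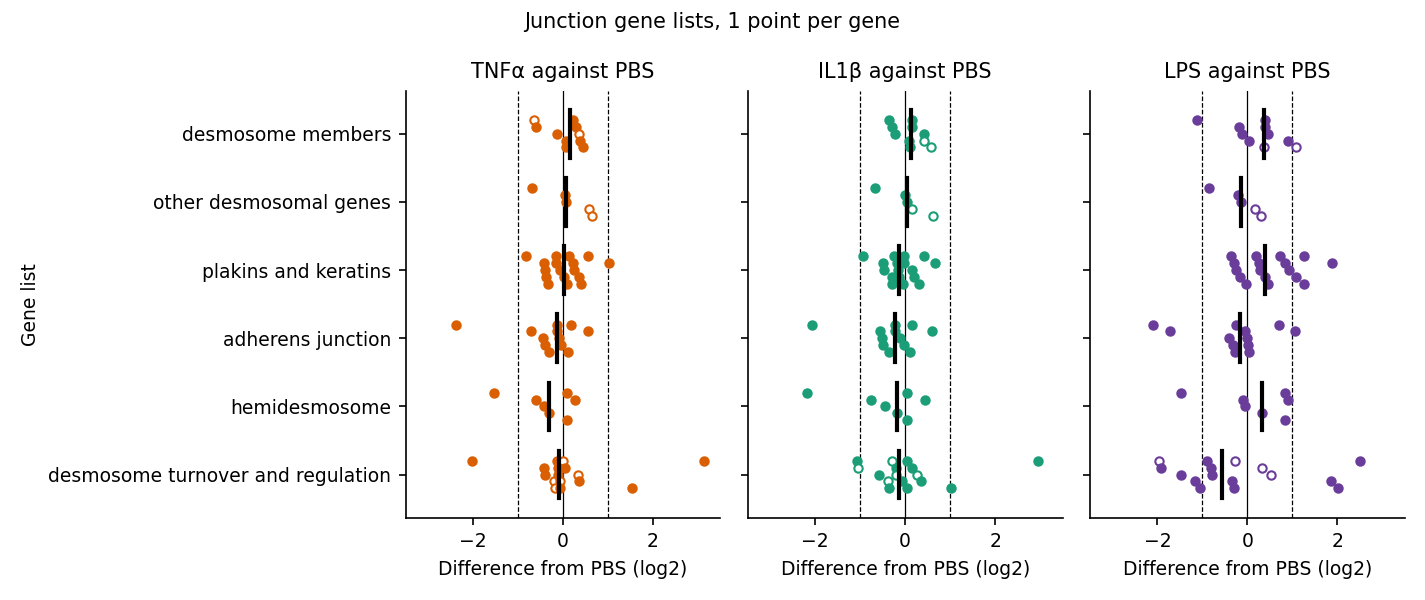
Log2 difference from PBS (horizontal axis) of each gene in 6 junction lists, for TNFα, IL1β and LPS; black bars are list medians, dashed lines mark 2-fold and open symbols mark genes under the floor. Each gene is drawn by its brightest probe set, so the dimmer JUP set is not shown. By these sets no desmosome gene lies beyond the 2-fold lines with either cytokine, and the turnover list holds the points farthest to the right, ADAM15 in each panel.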

How the data were processed

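The authors deposited, per the file headers and the labels, 1 RMA intensity per probe set on a linear scale for each of 4 single-colour NimbleGen arrays (Cy3), and a series value table with identical intensity values for all 45033 probe sets. RMA in its usual form equalises the distributions of arrays, so a difference is read against the bulk of genes; the sources used here do not name its software or settings. Probe set accessions were matched without versions to RefSeq (GRCh38.p14): 18866 sets (41.9%) matched, for 17185 genes, and 26167 did not. A gene took its brightest probe set. Log2 intensities were subtracted between arrays, with no test because each condition had 1 array; the number of arrays limits the precision. The members and lists were chosen with earlier results of these data known. Named genes were the 10 members, 5 further desmosomal genes, up to 3 genes per list and treatment with the largest called difference, reference markers and the 3 genes closest to the widest-ranging member; KRT17, PPL, PRKCA with LPS, SRC, SPINK5, ADAM10 and EGFR were added after their values were seen. The alternatives tried were thresholds of 1.5-fold and 3-fold, an offset of 50.9 before log2, loess, a further quantile normalization, the mean of a gene's probe sets, the series table, the 75th percentile as floor, and no floor; the dimmer JUP set was added after seeing the data. Tools were matplotlib 3.10.9, statsmodels 0.14.6, pandas 2.3.3 and numpy 2.4.6 under Python 3.11.15.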

Additional observations from a re-analysis of the deposited data

How the results depend on the processing

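No paired analysis was possible because each condition had 1 array. DSG2 stayed at least 2-fold lower with LPS than with each other array under the other normalizations and with the offset. The floors, the probe set rule and the series table could not change this call. DSG2 had only 1 probe set, it lay above both floors on every array, and the series table held identical values. At 3-fold the DSG2 call was lost, and 0 members were called in each of the 3 LPS comparisons. Without a floor 2 members were called for LPS against PBS (with DSC2), 2 for LPS against TNFα (with DSG1) and 1 for TNFα against IL1β (DSG1), and DSG1 is near background. At 1.5-fold the counts were 1 for TNFα against PBS (PKP3, lower), 1 for TNFα against IL1β (PKP2) and 2 in each LPS comparison, DSG2 with DSC3 against PBS and with PKP3 against TNFα and IL1β. With the dimmer JUP set the counts against PBS were 1, 1 and 2 with TNFα, IL1β and LPS, and the JUP difference with LPS turned from -0.12 to 1.29; why the sets differ was not tested. The median for LPS against PBS was 0.38 over 10 members and 0.22 over the 8 at the floor. For LPS against TNFα it was 0.31, and 0.19 with loess, -0.044 over the members at the floor and 0.46 without DSG2; the cause was not tested. The other medians moved by less than 0.1. Over all genes, 2.24% were called for TNFα against IL1β with the offset. With the floor at the 75th percentile, 4.27%, 4.28% and 13.5% were called against PBS with TNFα, IL1β and LPS, 1.60% for TNFα against IL1β, and 13.9% and 14.8% for LPS against TNFα and IL1β. Of 546 values of single members under alternatives 3 lost a call, 10 gained one and 1 turned sign with a call. Small uncalled differences also turned sign: JUP for LPS against TNFα and IL1β with the dimmer set, DSG2 for TNFα against IL1β and PKP1 for LPS against IL1β with another scaling. Values under the floor are the least certain.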

Other observations

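DSG2 had the widest range over the 4 arrays among the 10 desmosome genes by their brightest sets, 1.22 log2 units (1.29 for the dimmer JUP set), and the genes of closest pattern were looked up among named genes with a mean level at the floor. Closeness was the Euclidean distance over the 4 log2 values centred on each gene's mean. The nearest was UNC80, with log2 differences from PBS of 0.08 with TNFα, 0.10 with IL1β and -1.14 with LPS, at a distance of 0.02. PCNX1 followed with 0.11, 0.10 and -1.16, at a distance of 0.05, and TAS2R31 with 0.07, 0.13 and -1.07, also at 0.05. These are 4 points per gene, searched over many genes, and describe the arrays only.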
